A study of Mus musculus with 8 samples.

Results

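Of the 56576 genes in the table, 6 genes of inhibitory signalling were examined: the γ subunits Gabrg1 and Gabrg3 and the δ subunit Gabrd of the GABA-A receptor, both GABA-B receptor genes Gabbr1 and Gabbr2, and the scaffold gene Gphn, which encodes gephyrin. They were chosen by symbol, by a rule that uses no measured value, and all 6 passed the filter on low values (a mean of 10 or more in either genotype) and were tested. RNA bound to HA-tagged ribosomes was sequenced from synaptosomes, a fraction enriched in nerve terminals and the membrane attached to them, of the cerebral cortex at postnatal day 15. The 4 control libraries came from Lhx6-Cre;ErbB4+/+;Rpl22HA/HA mice, and the 4 from Erbb4 conditional mutants had the genotype Lhx6-Cre;ErbB4F/F;Rpl22HA/HA. Both genotypes therefore carried Lhx6-Cre and the tagged Rpl22 alleles and differed in the floxed Erbb4 alleles. Lhx6-Cre acts in interneurons that arise from the medial ganglionic eminence (MGE) and preoptic area, mostly PV+ and SST+ cells, so it both tags the ribosomes and deletes Erbb4 there. The study describes its replicates as different brains from different litters.

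GABA-A receptors are chloride channels built from several subunits. A γ subunit usually anchors the receptor at the synapse, where gephyrin holds it in place, whereas receptors with δ sit outside the synapse and carry tonic inhibition. GABA-B receptors are metabotropic and work only as a pair, in which the Gabbr1 product binds GABA and the Gabbr2 product couples to the G protein that opens potassium channels and closes calcium channels. Gephyrin also catalyses the last steps of molybdenum cofactor synthesis, its role outside the nervous system.

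Values are normalized counts, which are reads on the constitutive regions of a gene divided by 1 size factor per library. The 31171 genes tested were put on the scale log2(normalized count + 1) and compared between genotypes with limma. A gene was called where the unadjusted p was at most 0.05 and the fold change at least 1.5, the thresholds of the study. The 1 added to each value draws folds of low genes towards 0, and the mean of logs can differ in size or sign from the log of the means where libraries of a low gene vary widely.

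Erbb4, the deleted gene, had normalized counts of 1640.1, 5377, 4306 and 3034 in control replicates 1, 3, 4 and 5. Mutant replicates 2, 3, 4 and 5 had 1711, 1648, 1233 and 1048. The library labelled control replicate 1 thus lay within the mutant range, and fits without it are given for genes whose result it decides. Marker genes of the tagged cells were present in every library. The summed normalized count of 13 MGE interneuron markers, among them Gad1, Lhx6 and Slc32a1, ran from 42295 to 140159.8 in controls and from 22836 to 69133 in mutants. Of these 13 markers, 13 had log2 fold changes below 0 and 2 were called lower. Of 9 PV+ markers, 9 were below 0 and 4 were called lower, Pvalb among them. Of 9 SST+ markers, 8 were below 0 and 1 was called lower. RNA of other cells was present too, with sums of 140259.9 to 175588 over 10 excitatory neuron markers in controls and 123679 to 153042 in mutants. Of markers of cells outside the lineage, 1 of 10 excitatory neuron and 3 of 8 oligodendrocyte markers were called lower. None of the astrocyte, oligodendrocyte precursor, microglia and CGE interneuron markers were called lower. Called higher were 4 of 8 endothelial and mural markers and 1 of 10 excitatory neuron markers. Below 0 were 8 of 8 oligodendrocyte, 8 of 9 microglia and 7 of 9 tested CGE interneuron markers. So were 7 of 10 astrocyte, 7 of 10 excitatory neuron, 4 of 7 oligodendrocyte precursor and 1 of 8 endothelial and mural markers. The part of these cells in the results was not tested. In bulk samples fewer cells of a type and less RNA per cell cannot be told apart.

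Gabrd was the 1 gene of the 6 that met the thresholds. Its normalized counts were 39316, 48997, 25672 and 13607 in control replicates 1, 3, 4 and 5, and 20332, 23183, 6783 and 5388 in mutant replicates 2, 3, 4 and 5. Every control but replicate 5 lay above the highest mutant, and control replicate 5 lay between the mutant libraries. The mean fell from 31898 ± 15499.9 (SD, n = 4) to 13922 ± 9140.3 (SD, n = 4), a log2 fold change of -1.32 (standard error 0.53) with an unadjusted p of 0.029 by limma (adjusted p = 0.58, Benjamini-Hochberg over all genes). An exact permutation test of the same difference gave p = 0.11 (two-sided), where 4 libraries against 4 allow no p below 0.029. Gabrd lies on chromosome 4 of mm10, from 155384979 to 155398069. The call was lost without control replicate 1 (log2 fold change -1.17), control replicate 3 (-1.06), mutant replicate 4 (-1.07) or mutant replicate 5 (-0.96).

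Of the 6 genes, 1 was called lower and 0 higher, beside 3.17% of all tested genes called lower, 3.98% called higher and 7.15% called in either direction. All 6 had log2 fold changes below 0, with a median of -0.51, whereas 46.6% of all tested genes were below 0 and their median was 0.06. None of the 6 had values that separated the genotypes without overlap, as 2.17% of all tested genes did with mutants lower, 2.76% with mutants higher and 4.93% either way. By limma, 0 of the 6 had an adjusted p under 0.05, against 0.0449% of all tested genes. At an unadjusted p under 0.05 stood 2 of the 6, Gabrd and Gabbr1, against 8.33% of all tested genes. With so few genes, chosen with earlier results known, these counts are a description.

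**Figure D1:**
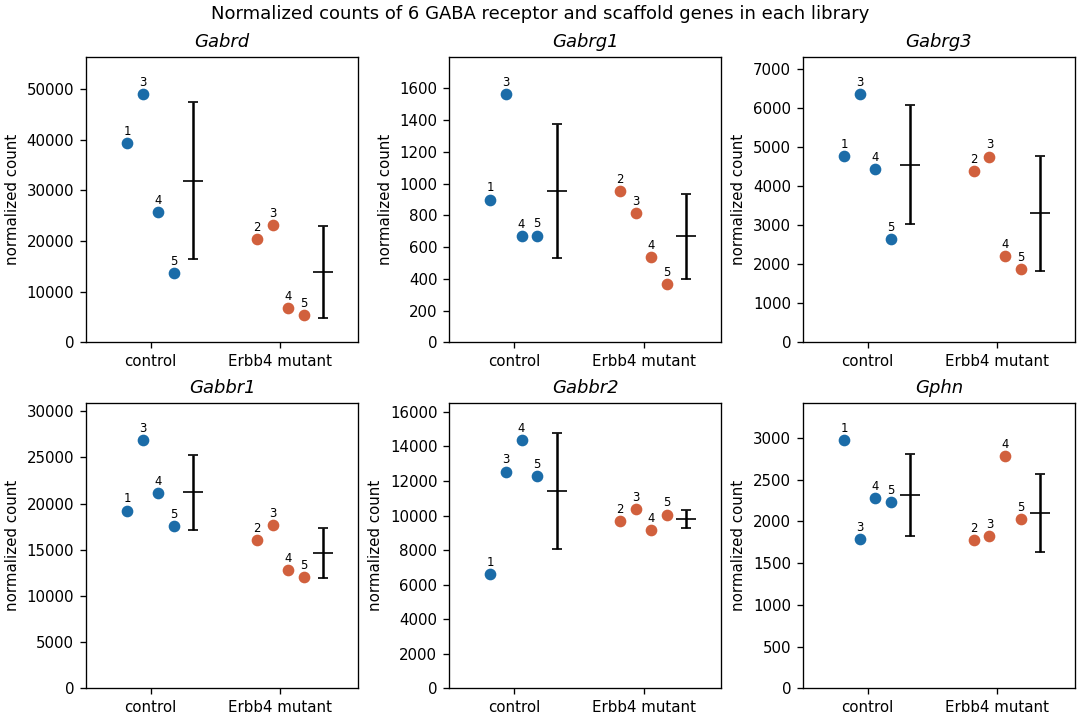
Normalized count of each gene (vertical axes, from 0) in 4 control and 4 Erbb4 mutant libraries, 1 point per library with its replicate number. Black bars give the mean and SD of each genotype. Gabrd had a mean of 31898 in controls and 13922 in mutants, while the Gphn means of 2317 and 2102 lay within the spread of the libraries.

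The bases at the annotated transcription starts were read because messages that depend most on mTORC1, the pathway the study follows below ErbB4, begin with a C and a run of pyrimidines (C or T). RefSeq entries (GRCm38.p6) were matched for 5 of the 6 genes, all but Gabrd. Each sequence below runs 5′ to 3′ over 30 bases across the start, and capitals mark the first 5 transcribed bases.
Gabrg1, chr5:70842603-70842632, minus strand: agaggtagtggccccGATATagaacatcag
Gabrg3, chr7:57387201-57387230, minus strand: cagccccgcccccttCCCGAcctcccaact
Gabbr1, chr17:37045951-37045980, plus strand: ccctctccgatctccCCCTCccttcccccc
Gabbr2, chr4:46991700-46991729, minus strand: cggggcggccgcgctGGAGAgaggcgcgcg
Gphn, chr12:78226640-78226669, plus strand: ccccctccttcccgcTCGCCtcgcgctccc
Of these, Gabbr1 alone had a C followed by 4 pyrimidines in the marked bases, a form found at 2.51% of the 32851 starts in the table (read on the transcribed strand). Gabrg3 began with 3 C, broken by a G. The start used in these cells was not measured, and a match is a description of the annotated bases.

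Gabrg1 and Gabrg3 encode the less abundant γ subunits of the cortex. Gabrg1 (chromosome 5, 70751047 to 70842618) had 898, 1563, 669.6 and 673 normalized counts in control replicates 1, 3, 4 and 5 and 954, 815, 536 and 365 in mutant replicates 2, 3, 4 and 5. The genotypes overlapped, with mutant replicates 2 and 3 above controls 4 and 5. The means were 951 ± 422 (SD, n = 4) and 668 ± 266 (SD, n = 4), a log2 fold change of -0.51 (standard error 0.37, limma adjusted p = 0.64, exact permutation p = 0.31). Its 95% interval, from -1.33 to 0.30, takes in no change as well as a fall as large as that of Gabrd.

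Gabrg3 lies on chromosome 7, from 56716463 to 57387215. Controls 1, 3, 4 and 5 had 4773, 6354, 4441 and 2634 normalized counts of it, and mutants 2, 3, 4 and 5 had 4390.3, 4757, 2201 and 1874. Mutant replicates 4 and 5 were below every control, and mutants 2 and 3 were not. The log2 fold change was -0.51 (standard error 0.36, limma adjusted p = 0.63, exact permutation p = 0.20), from 4551 ± 1526 (SD, n = 4) to 3306 ± 1478 (SD, n = 4).

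Gabbr1, the GABA-binding subunit of the GABA-B receptor, missed the fold threshold. Its normalized counts were 19240.3, 26859, 21121 and 17579.9 in controls 1, 3, 4 and 5 and 16063, 17678, 12772 and 12019 in mutants 2, 3, 4 and 5. The genotypes would not overlap but for mutant replicate 3, which lay just above control replicate 5. The 1 annotated start read for Gabbr1 is that with the pyrimidine run printed above. The GENCODE annotation lists 11 transcripts of Gabbr1, and other starts were not read. The means of its normalized counts were 21199.8 ± 4040.2 (SD, n = 4) and 14633 ± 2684 (SD, n = 4), which gives a mutant level 0.69 times the control level (log2 fold change -0.53, standard error 0.22, limma p = 0.031 unadjusted, adjusted p = 0.58, exact permutation p = 0.057). Gabbr1 is on chromosome 17, from 37045966 to 37075067. It passed both thresholds without control replicate 5 (-0.62), mutant replicate 2 (-0.59) or mutant replicate 3 (-0.63).

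Gabbr2, the partner that couples to G proteins (chromosome 4, 46662318 to 46991714), varied little among mutants. It had 9678, 10367, 9163 and 10062 normalized counts in mutants 2, 3, 4 and 5. Controls 3, 4 and 5 had 12537, 14363 and 12297, all above every mutant, but control replicate 1 had 6608, the lowest of the 8 libraries. The means were 11451 ± 3358 (SD, n = 4) and 9817 ± 519.5 (SD, n = 4), and the log2 fold change was -0.17 (standard error 0.24, limma adjusted p = 0.82, exact permutation p = 0.60). Without control replicate 1, the log2 fold change was -0.41, short of the fold threshold.

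The balance of the GABA-B pair was followed as the ratio of Gabbr1 to Gabbr2 normalized counts within each library, which no size factor can move. It was 2.91, 2.14, 1.47 and 1.43 in control replicates 1, 3, 4 and 5 and 1.66, 1.71, 1.39 and 1.19 in mutant replicates 2, 3, 4 and 5. Controls 4 and 5 lay among the mutants. The mean log2 ratio was 0.93 in controls (SD 0.49, n = 4) and 0.56 in mutants (SD 0.24, n = 4). That is a difference of -0.37 (exact permutation test, two-sided, p = 0.23, adjusted p = 0.40 over 7 tests). The highest ratio was that of control replicate 1, at 1.54 on the log2 scale, beside 1.10, 0.56 and 0.52 in controls 3, 4 and 5. The size of the difference therefore rested in part on that library.

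Gphn (chromosome 12, 78226652 to 78684767) was close to level. Controls 1, 3, 4 and 5 had 2973, 1785, 2280.0 and 2229 normalized counts and mutants 2, 3, 4 and 5 had 1778, 1823, 2781 and 2024. The highest library of each genotype stood well above the other 3, and the ranges overlapped almost throughout. The means were 2317 ± 491 (SD, n = 4) and 2102 ± 465 (SD, n = 4), and the log2 fold change was -0.14 (standard error 0.22, 95% interval -0.63 to 0.35).

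Levels of different genes were compared per kilobase of annotated exon, using the union of GENCODE exons, since the lengths of the counted regions are not given in the sources used here. Gabrd stood highest in controls, at 11095 ± 5391 normalized counts per kb (SD, n = 4), followed by Gabbr1 at 2731 ± 520.4 (SD, n = 4) and Gabbr2 at 1713 ± 502 (SD, n = 4). Gphn had 618 ± 131 normalized counts per kb (SD, n = 4) and Gabrg3 had 381 ± 128 (SD, n = 4). Gabrg1 was lowest, at 121 ± 53.6 (SD, n = 4). Among neighbours in this order, the control ranges overlapped for Gphn (476 to 793) and Gabrg3 (221 to 532) and for no other pair. In mutants Gabrd, at 1874 to 8064 normalized counts per kb, overlapped Gabbr1, at 1548 to 2277, and Gabbr1 in turn overlapped Gabbr2, at 1370.5 to 1551. The order in controls was the same with the length of the longest transcript.

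**Figure D2:**
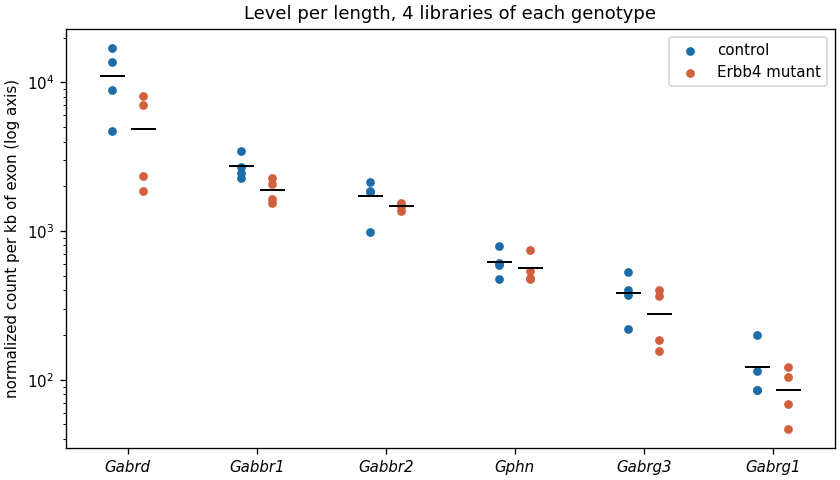
Normalized count per kb of annotated exon (log axis) of each gene, ordered from left to right by the control mean, with 1 point per library and a black line at each mean. Gabrd is highest at a control mean of 11095 per kb and Gabrg1 lowest at 121 per kb.

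The libraries also differed within genotypes, and the 6 genes fell into 2 patterns there, a grouping made after the values were seen. Gabrd was lower in replicates 4 and 5 than in the lower-numbered replicates of the same genotype, with a difference of -1.23 on the log2 scale in controls and -1.84 in mutants. The same difference was -0.69 in controls and -1.17 in mutants for Gabrg3, -0.82 and -0.99 for Gabrg1, and -0.24 and -0.44 for Gabbr1. Gabbr2 and Gphn did not share it, with differences of 0.55 and -0.06 for Gabbr2 and of -0.03 and 0.40 for Gphn. The control differences of both depended on control replicate 1. Gabbr2 had log2 values of 12.69 and 13.61 in controls 1 and 3, beside 13.81 and 13.59 in controls 4 and 5. Gphn had 11.54 and 10.80 in controls 1 and 3, beside 11.16 and 11.12 in controls 4 and 5. The study sequenced in batches, which no label ties to the libraries, so the replicate numbers are not a batch by label.

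Within each of these sets of replicate numbers, 2 libraries stood against 2. Gabrd was lower in mutants without overlap in both sets, with log2 differences of -1.02 among replicates 1 to 3 and -1.63 among replicates 4 and 5. Gabbr1 was likewise lower without overlap in both sets (-0.43 and -0.64), and so was Gabrg3 (-0.27 and -0.75), as were 8.28% of all tested genes. Gabrg1 overlapped among replicates 1 to 3 (-0.43) and not among replicates 4 and 5 (-0.60). Gabbr2 and Gphn changed sign between the sets, at 0.14 and -0.47 for Gabbr2 and at -0.36 and 0.07 for Gphn. Both signs among replicates 1 to 3 rested on control replicate 1. For Gabbr2, control replicate 3 (12537 normalized counts) lay above mutant replicates 2 and 3 (9678 and 10367). For Gphn, control replicate 3 (1785) lay between mutant replicates 2 and 3 (1778 and 1823).

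The first pattern was also that of the MGE interneuron markers. Across the 8 libraries, Pearson's correlation of the log2 value with the mean log2 value of the 13 markers was 0.97 for Gabrd, 0.97 for Gabrg3, 0.96 for Gabbr1 and 0.93 for Gabrg1. It was 0.19 for Gabbr2 and -0.31 for Gphn. Control replicate 1 was the lowest library of Gabbr2 and the highest of Gphn, and correlations without it were not computed. These points share genotype, library and depth, so the values describe the libraries. Gabrd also correlated at 0.96 with the PV+ and at 0.96 with the SST+ interneuron markers. With markers of cells outside the lineage, the correlation of Gabrd was 0.73 for CGE interneurons, 0.62 for microglia, 0.51 for oligodendrocytes and 0.45 for astrocytes. It was -0.09 for excitatory neurons, -0.50 for endothelial and mural cells and -0.59 for oligodendrocyte precursors.

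Relative to the mean of the MGE markers in the same library, Gabrd differed by -0.61 on the log2 scale between mutants and controls (exact permutation test, two-sided, p = 0.11, adjusted p = 0.40 over 7 tests). Values of the other genes minus the marker mean were higher in mutants than in controls, with differences of 0.20 for Gabrg1, 0.20 for Gabrg3, 0.18 for Gabbr1, 0.55 for Gabbr2 and 0.57 for Gphn. The lowest p of these was 0.086 for Gabrg3 by the exact permutation test, and none passed 0.05. With the marker mean as a covariate in limma, the log2 fold change of Gabrd was -0.17 and those of Gabrg1 and Gabrg3 were 0.18 and 0.24, none of them called. The markers differed between the genotypes themselves, so this covariate takes out part of the genotype difference.

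**Figure D3:**
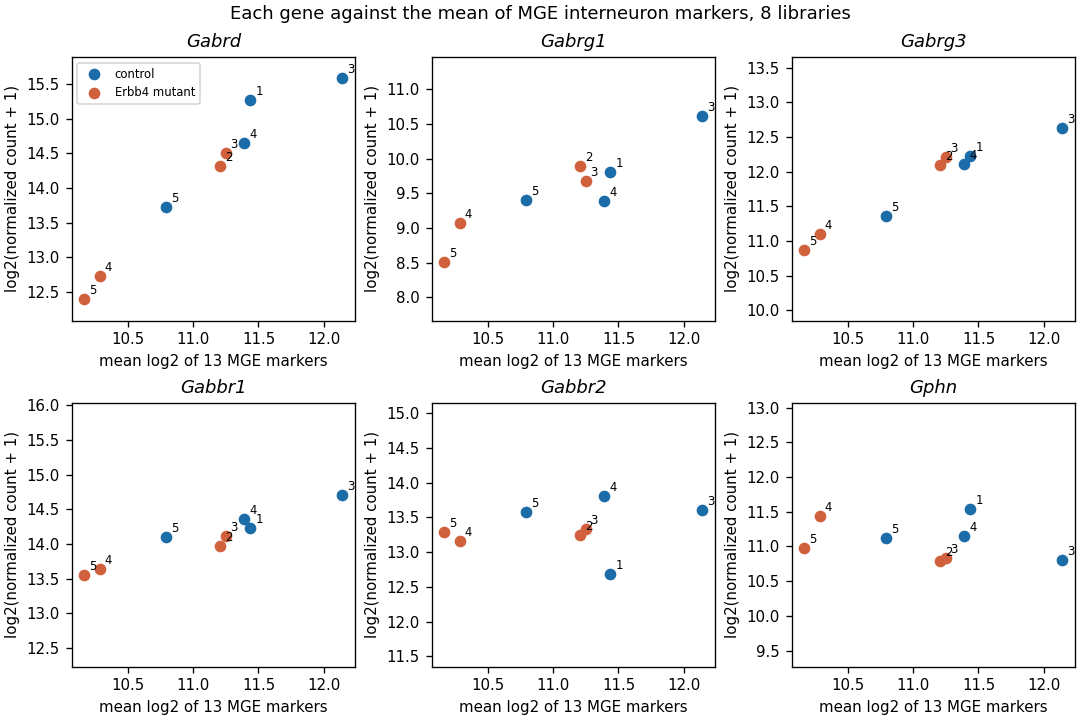
log2(normalized count + 1) of each gene (vertical axes, all spanning the same number of log2 units) against the mean log2 value of 13 MGE interneuron markers, 1 point per library with its replicate number. Gabrd, Gabrg1, Gabrg3 and Gabbr1 rise along the marker mean, with Pearson's correlations of 0.97, 0.93, 0.97 and 0.96, whereas Gabbr2 (0.19) and Gphn (-0.31) do not.

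The genes themselves divided in the same way. Gabrd correlated at 0.97 with Gabrg3, 0.92 with Gabbr1 and 0.90 with Gabrg1 over the 8 libraries, but at 0.04 with Gabbr2 and -0.15 with Gphn. The 2 GABA-B genes correlated at 0.36 (0.52 by Spearman's rank correlation). Gabbr2 was lowest and Gphn highest in control replicate 1, and none of these correlations was computed without that library. Among 13761 named genes with a mean of at least 100, those most like Gabrd were Panx1 (0.998), a channel gene, Tubb3 (0.997), a neuronal tubulin, and Pvalb (0.996), the calcium-binding protein that defines PV+ interneurons. Those most like Gabrg3 were Myadm (0.997), Pcyox1l (0.994) and Vstm2a (0.994). Gabrg1 was most like Rab3c (0.98), a synaptic vesicle GTPase, Chrm2 (0.98), a muscarinic receptor, and Galnt13 (0.98). Gabbr1 was most like Abcb9 (0.992), Chrm4 (0.990) and the potassium channel gene Kcna2 (0.989). Gabbr2 was most like Ogdhl (0.977), LOC115490137 (0.976) and Peg3 (0.968), and Gphn like Zfp661 (0.98), Gm5141 (0.935) and Nelfe (0.935).

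GABA-A subunit genes lie in clusters, and the neighbours of Gabrg1 and Gabrg3 were followed as well. On chromosome 5, beside Gabrg1, the log2 fold changes were -0.24 (standard error 0.20) for Gabra2, -0.31 (standard error 0.20) for Gabra4 and -0.35 (standard error 0.23) for Gabrb1. On chromosome 7, beside Gabrg3, it was -0.48 (standard error 0.21) for Gabra5. None of these neighbours was called, although Gabra5 separated the genotypes without overlap.

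Of 16 other GABA-A subunit genes, 12 were tested, 10 had log2 fold changes below 0, 1 was called lower and 0 higher, with a median of -0.41. The called gene was Gabrb2, a β subunit gene whose log2 fold change was -0.74 (standard error 0.31). Gabra6, Gabre, Gabrp and Gabrr3 were too low to test. The call of Gabrb2 was lost without control replicate 3 (-0.55), control replicate 4 (-0.67), mutant replicate 4 (-0.62) or mutant replicate 5 (-0.58).

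Of 24 genes for partners of gephyrin and of inhibitory synapses, 19 were below 0, 1 was called lower and 1 higher, with a median of -0.32. Dynll2, which encodes a dynein light chain that binds gephyrin, fell from a mean of 2864 to 1563 normalized counts (log2 fold change -0.84, standard error 0.24) without overlap between genotypes. Plcl1, whose product binds GABA-A subunits and takes part in their trafficking, rose from 1317 to 2187 normalized counts (log2 fold change 0.83, standard error 0.31), a call lost without control replicate 1 (0.50). Of the glycine receptor genes, 4 of 5 were tested, 3 were below 0 and 0 were called by limma, none at an unadjusted p under 0.05. They ran from -1.15 for Glra1 to 0.16 for Glra3, both of low level. Glrb, named after its values were seen, encodes the subunit that gephyrin binds, and its log2 fold change was -0.93 (standard error 0.46). Glrb met the thresholds without control replicate 5 (-1.30), mutant replicate 2 (-1.17) or mutant replicate 3 (-1.15), and Glra1 without control replicate 5 (-1.83).

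Of 16 genes for GABA-B auxiliary subunits and effectors, 11 were below 0, 1 was called lower and 0 higher, with a median of -0.10. Kctd8, an auxiliary subunit that shapes the time course of GABA-B responses, had fallen by 0.75 on the log2 scale (standard error 0.33). It lost the call without control replicate 1 (-0.57), control replicate 3 (-0.57), mutant replicate 2 (-0.79), mutant replicate 4 (-0.61) or mutant replicate 5 (-0.71). Of 9 genes for making or using the molybdenum cofactor, 4 were below 0, 0 were called lower and 1 higher, with a median of 0.26. Mocos, which encodes the enzyme that adds sulfur to the cofactor, rose from 174 to 353 normalized counts (log2 fold change 1.07, standard error 0.41), a call lost without control replicate 3 (0.85), control replicate 5 (0.92), mutant replicate 4 (0.99) or mutant replicate 5 (0.91). The endothelial and mural markers called higher moved in the same direction as Mocos and Plcl1. All 8 endothelial and mural markers, called or not, summed to 168896 to 266864 normalized counts in controls and 258166 to 277566 in mutants. The part of endothelial and mural cells in the Mocos and Plcl1 calls was not tested.

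**Figure D4:**
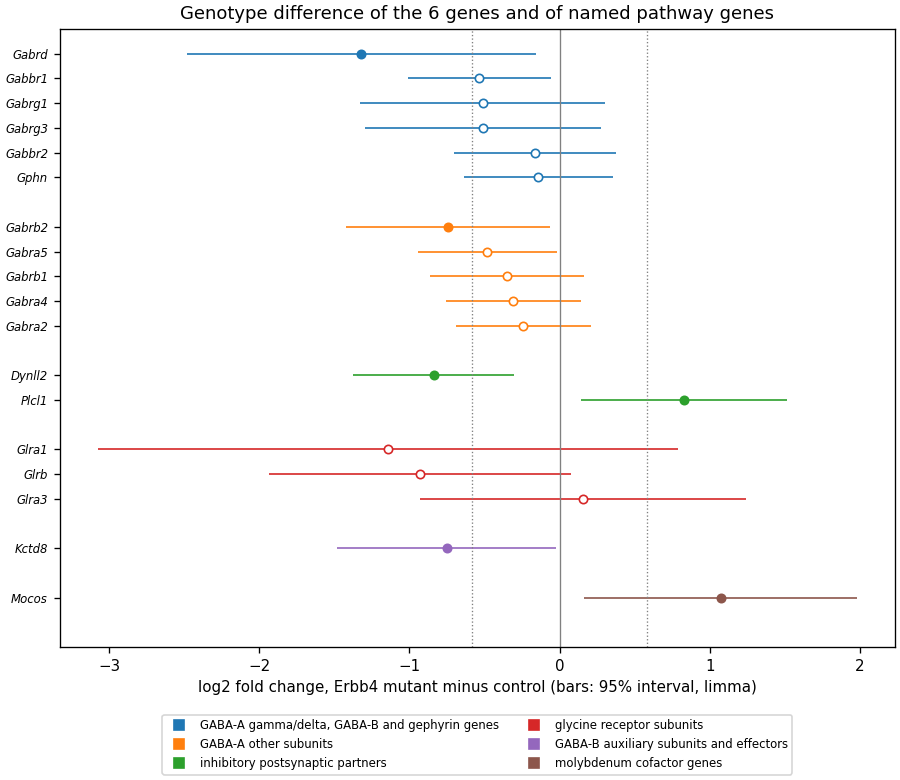
log2 fold change of Erbb4 mutants against controls (horizontal axis) with its 95% limma interval, for the 6 genes and for the pathway genes named in the text, grouped by colour. Filled points met both thresholds and dotted lines mark a fold change of 1.5. Gabrd is lowest of the 6 genes at -1.32, and Plcl1 and Mocos are the filled points above 0.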

How the data were processed

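Ribosome-bound RNA of 8 synaptosome libraries was analysed. The authors aligned reads to mm10 with STAR 2.4.0, counted those on constitutive gene regions of Fast DB, and deposited a signal: each count over the size factor that DESeq2 gave its library. All 8 columns were matched to samples by name. Each value was a whole multiple (tolerance 0.01) of its library's smallest value, which gives 51010687 to 80226984 reads per library. The spread between libraries stands for the error of each value, counting error included. Count tests with edgeR and DESeq2 were not run, because 2 of the libraries have a smallest value too near 1 for whole reads to be accepted as recovered.

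Genes whose mean reached 10 in either genotype were fitted with limma 3.58.1 (trend, no covariate) in R 4.3.3, on log2(value + 1). Adjustment over all genes was by Benjamini-Hochberg. TMM factors came from edgeR 4.0.16. Ratios were compared by exact permutation tests. The fit was tested on simulated counts. Lengths, strands and exons came from GENCODE M21 (GRCm38). Counting is not stated to use strand, and GENCODE places other genes or pseudogenes on both strands within Gphn and Gabrg3, whose reads could not be told apart where counted regions overlap them.

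The genes and lists were chosen with earlier results of these data known. Named genes were the 6, Erbb4, called genes of each list or else its extremes, cluster neighbours, and the 3 genes most correlated with each of the 6. Some genes of the lists are counted but not reported here by name. The labels tie no library to a sequencing batch. No protein sequence was used here.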

Additional observations from a re-analysis of the deposited data

How the results depend on the processing

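Each alternative altered 1 choice, except that the replicate block also sets aside control replicate 1 and mutant replicate 2, whose numbers are not shared. Causes were not tested. The count tests of edgeR and DESeq2 were not run. The reported comparison called 2229 genes, against 3630 with library weights, 3827 with a covariate for the first residual component, 3558 with the set of replicate numbers as a covariate (chosen after seeing the data) and 1194 to 3767 with 1 library left out. Over the alternatives Gabrd stayed below 0, from -1.68 to -0.17, and so did Gabbr1 (-0.63 to -0.21) and Gabbr2 (-0.41 to -0.04). By limma, Gabrd had an unadjusted p of at most 0.05 in 13 of 19 alternatives. Library weights gave it -1.59 (limma adjusted p = 0.25) and the replicate block -1.45 (limma adjusted p = 0.10). Its lowest limma adjusted p, 0.039, came with the set of replicate numbers as a covariate, chosen after seeing the data. Gabrd kept its value of -1.32 but lost the call without the limma trend (unadjusted p = 0.069) and in the exact permutation test. It was -0.17 with the MGE marker mean as a covariate. That covariate turned Gabrg1 to 0.18 and Gabrg3 to 0.24, and among other genes turned Gabra2 to 0.032 and Glrb to 0.067, and moved the glycine receptor median to -0.11. Library weights gave Gabrg3 at -0.73 and Gabbr1 at -0.63, both then called, Gphn at 0.024 and Glra3 at -0.034. With 1 library left out, Gabrd ran from -1.68 to -0.96, Gabbr1 from -0.63 to -0.41 and Glra3 from -0.059 to 0.32. The left-out fits gave Gabrg1 from -0.72 to -0.24, Gabrg3 from -0.75 to -0.28 and Gphn from -0.28 to -0.01. Among 13 other named genes over 245 fits, 22 calls were lost, 7 gained and 5 signs turned. The ratios and the values relative to MGE markers kept their direction and stayed above p = 0.05 throughout, although with 1 library left out (smallest exact p 0.057) or over 3 pairs (smallest exact p 0.25) they could not pass it.

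Numbers 3, 4 and 5 are shared by the genotypes, but no label pairs these animals. Deviations from the genotype means correlated at 0.094 on average between libraries of the same number and at -0.021 otherwise. A replicate block gave Gabrg1 -0.71, Gabrg3 -0.64 and Gabbr1 -0.63, all then called, and Gphn 0.059, and 1719 genes were called lower in place of 988 (1633 with library weights, 1821 with the number-set covariate). Genes called higher numbered 1241, but 2431 with the residual component, 1997 with weights and 782 with the MGE marker covariate. At an adjusted p under 0.05 by limma stood 14 genes lower and 0 higher, but 0 and 0 with the block, 4 to 12 lower with 1 library left out, and 375 lower and 169 higher with the number-set covariate, which each genotype fills equally and so cannot move a fold change. The share of calls that were lower moved from 44.3% to 54.3% with the block and to 55.0% with the MGE marker covariate. It ran from 31.9% to 52.5% with 1 library left out.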
